A study of Mus musculus with 3 samples.

Results

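ESRRA binding was mapped at 8 genes of chylomicron assembly: Apoa1, Apoa4, Apoa5, Apoc3, Apoc2, Apob, Mttp and Sar1b. The genes were named by their role, and a peak was assigned to a gene when its midpoint lay within 30 kb of an annotated start site of any transcript of that gene. Of the 1639 ESRRA peaks in the list, 15 met this rule for at least 1 of the 8 genes. All but Sar1b, 7 genes, had a peak. The peak farthest inside the limit was 27499 bp from Apoa1. Just outside it, peaks already assigned to a neighbour lay 32959 bp from Apoa5 and 34179 bp from Apoc3, and the next peak of the list beyond those 15 was 98.2 kb from Mttp.

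The series holds 3 libraries from villus cells of the duodenal epithelium of adult WT mice, which the study's methods describe as C57BL/6 animals fed regular chow. In the ESRRA ChIP group, 2 libraries were immunoprecipitated with an anti-ESRRA antibody, and the input group is 1 library of sheared chromatin without immunoprecipitation. The groups share genotype, diet and tissue, and no ESRRA-deficient sample is part of the series. The measurement is 1 list of peaks that the authors called on the merged ChIP libraries, with the position of each peak and no height, score or p-value, so that no value below has a replicate error and no test was run.

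Enterocytes package dietary fat into chylomicrons. APOB forms the backbone of each particle, the microsomal triglyceride transfer protein encoded by Mttp loads it with lipid in the endoplasmic reticulum, the small GTPase SAR1B lets the large nascent particle leave in COPII carriers, and the exchangeable apolipoproteins join the surface and steer the particle's later fate in blood. ESRRA, the estrogen-related receptor alpha, is an orphan nuclear receptor best known for genes of mitochondrial energy metabolism, and it binds an extended half-site, TCAAGGTCA, alone or in pairs.

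The 8 genes occupy 5 loci, and 4 of them, Apoa1, Apoc3, Apoa4 and Apoa5, lie side by side on chromosome 9. They therefore share peaks, and the 15 peaks are not 15 independent observations. A peak was called single-copy when its median 24-base word had at most 10 copies in the genome, and in all 15 this median was 1. A single-copy peak can still hold repeated stretches. The most frequent word had 39981 copies in Apoa1 locus peak 1, 292 in Apob peak 5, 291 in Mttp peak 2 and 47 in Apoa1 locus peak 3. In the other peaks it had at most 8. The 15 peaks formed a run of 6 at Apoa1-Apoc3-Apoa4, a run of 5 at Apob, a run of 3 at Mttp and 1 isolated peak near Apoc2. A run is a series of peaks whose neighbouring midpoints lie at most 30 kb apart. Peaks are numbered below from the lower coordinate at the Apoa1 locus and at Apob, and from the 5′ end of the gene at Mttp.

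The sequence under the peaks closest to a start site is shown first, because some of these peaks hold several receptor half-sites and others none. All stretches are on the forward strand of mm9. Capitals in the first pair mark AGGTCA on either strand, the 6-base core that many nuclear receptors share, and TGACCT is the same core on the other strand. Apoa1 locus peak 5 is shown upstream of the Apoc3 start site, at chr9:46043720-46043907, where Apoc3 runs to the left. Apoa1 locus peak 3 is shown at chr9:46037093-46037392, from intron 2 of Apoa1 across exon 3 into intron 3.
Apoc3 upstream, peak 5: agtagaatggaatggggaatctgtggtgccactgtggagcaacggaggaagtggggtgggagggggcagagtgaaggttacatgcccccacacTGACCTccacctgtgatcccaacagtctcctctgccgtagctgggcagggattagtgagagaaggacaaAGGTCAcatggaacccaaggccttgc
Apoa1, peak 3: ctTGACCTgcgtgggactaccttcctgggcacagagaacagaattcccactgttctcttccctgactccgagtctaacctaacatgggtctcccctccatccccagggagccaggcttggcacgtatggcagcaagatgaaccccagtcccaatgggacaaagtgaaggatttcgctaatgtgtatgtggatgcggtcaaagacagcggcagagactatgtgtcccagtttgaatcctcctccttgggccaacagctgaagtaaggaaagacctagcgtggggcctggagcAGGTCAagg

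The peaks closest to the start sites of Apob and Mttp held no AGGTCA in 601 bases. They are shown at chr12:7984975-7985274 for Apob and at chr3:137793380-137793679 for Mttp, with the 9 bases closest to TCAAGGTCA in capitals. The best match differed from TCAAGGTCA at 2 bases in each, TCAGGGTGA on the reverse strand at Apob and ACAAGGTTA on the forward strand at Mttp.
Apob, peak 1: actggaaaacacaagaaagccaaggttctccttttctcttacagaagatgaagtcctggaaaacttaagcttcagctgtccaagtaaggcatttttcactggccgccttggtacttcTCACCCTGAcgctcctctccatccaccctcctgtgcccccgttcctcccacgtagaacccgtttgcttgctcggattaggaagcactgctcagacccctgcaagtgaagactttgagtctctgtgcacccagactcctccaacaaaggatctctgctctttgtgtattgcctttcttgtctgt
Mttp, peak 1: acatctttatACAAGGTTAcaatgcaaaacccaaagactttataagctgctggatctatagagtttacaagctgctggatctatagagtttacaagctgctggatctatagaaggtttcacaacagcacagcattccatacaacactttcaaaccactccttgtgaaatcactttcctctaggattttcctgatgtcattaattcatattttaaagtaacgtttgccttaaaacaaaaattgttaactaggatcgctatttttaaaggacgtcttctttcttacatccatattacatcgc

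The 7-base ESRR half-site AAGGTCA occurred 5 times, in 4 of the 15 peaks. The sites not already shown are given with their neighbouring bases, with AAGGTCA in capitals. They lie at chr9:46009172-46009232 in an intron of Sik3, at chr9:46043455-46043473 beside the start site of Apoc3, at chr9:46051206-46051266 in coding exon 3 of Apoa4 and at chr3:137781588-137781648 in an intron of Mttp.
Sik3 intron, Apoa1 locus peak 1: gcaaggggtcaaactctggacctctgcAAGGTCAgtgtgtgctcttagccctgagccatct
Apoc3 proximal, Apoa1 locus peak 5: tgggcaAAGGTCAcctgct
Apoa4 exon, Apoa1 locus peak 6: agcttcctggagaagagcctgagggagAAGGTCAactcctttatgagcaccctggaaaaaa
Mttp intron, Mttp peak 2: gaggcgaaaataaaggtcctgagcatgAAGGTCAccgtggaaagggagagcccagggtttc

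The genes differed in their number of peaks from 0 to 6. They were chosen with results of this list known, so the background shares below are a description only. A peak lay within 30 kb of a start site in 7 of the 8 genes, against 1956 of 22367 protein-coding genes, or 8.75%. A peak lay within 1 kb of a start site in 4 of the 8, Apoa1, Apoc3, Apob and Mttp, against 2.08% of protein-coding genes. At least 3 peaks were found at 5 of the 8, Apoa1, Apoa4, Apoc3, Apob and Mttp, against 0.791% of protein-coding genes. At least 5 were found at 4 of the 8, Apoa1, Apoa4, Apoc3 and Apob, against 0.179%. Since 3 of these 4 genes share 1 run, the counts come from fewer loci than genes. Counted from the start of the gene record alone, Apob and Mttp had 2 peaks each. Only Apoa1, Apoa4 and Apoc3, all of 1 run, then kept at least 3. Apoa1 had 6 peaks, a number that 21 protein-coding genes reached or passed. Apoa5 and Apoc2 had 1 each, which lay in Apoa4 and in Apoe.

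**Figure D1:**
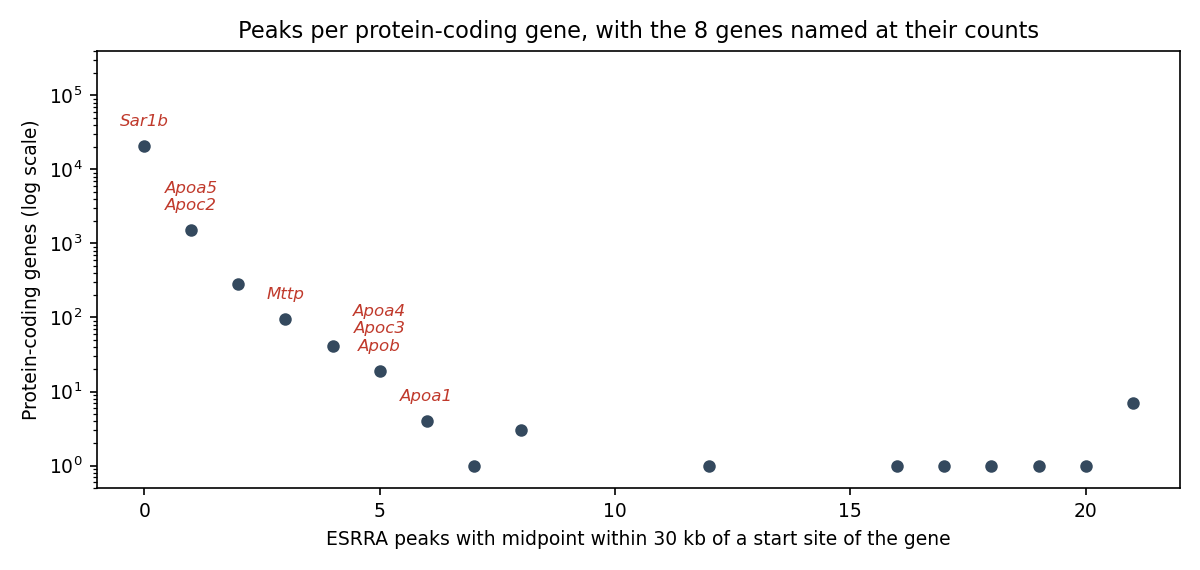
Number of protein-coding genes (vertical axis, log scale) by the number of ESRRA peaks with a midpoint within 30 kb of a start site (horizontal axis), with the 8 genes named above the point of their count. Sar1b stands with the 20411 genes that had no peak, while Apoa1 is one of 4 genes with 6 peaks.

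**Figure D2:**
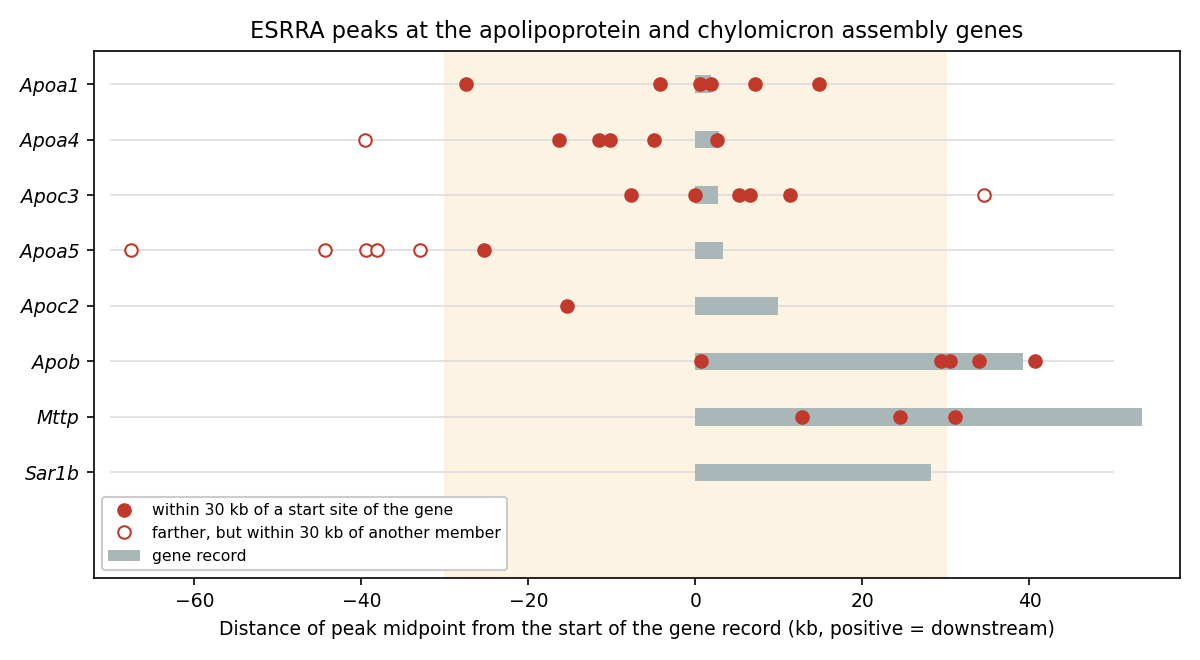
Distance of each ESRRA peak midpoint from the start of the gene record in kb, positive downstream, with one row per gene. Grey bars are gene records, the shaded band is 30 kb to each side of the record's start, filled points are within 30 kb of any start site of the gene, and open points belong to a neighbouring member only; Sar1b has no point.

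At the Apoa1-Apoc3-Apoa4 locus the 6 peaks spanned 42.2 kb between the first and the last midpoint. Along the chromosome the gaps between neighbours were 23217, 4861, 1318, 5197 and 7649 bp, so that peaks 2 to 6 stood close together over the genes and peak 1 stood off to one side. Peak 1 lay in an intron of Sik3, a salt-inducible kinase gene, 27499 bp upstream of Apoa1. Peak 2 lay between Sik3 and Apoa1, 104 bp past the 3′ end of Sik3 and 4282 bp upstream of Apoa1.

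Apoa1 encodes the main protein of high-density lipoprotein, which the intestine also secretes on chylomicrons. The gene lies on the forward strand at chr9:46036663-46038549 (ENSMUSG00000032083.8), 1887 bp long, with peak 3 inside it and peak 4 across its 3′ end. The midpoint of peak 3, at chr9:46036942-46037542, fell in coding exon 3, 579 bp from the start of the gene record and 438 bp from the nearest transcript start. The midpoint of peak 4, at chr9:46038260-46038860, fell 11 bp past the 3′ end, with 223 of its 601 bases in coding sequence of Apoa1. Peak 3 held AGGTCA at 3 places, at 220.5 and 144.5 bp to the left and 144.5 bp to the right of the midpoint, and AAGGTCA at none.

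Apoc3 encodes an inhibitor of lipoprotein lipase and of remnant uptake, and it runs against Apoa1 on the reverse strand at chr9:46041016-46043719 (ENSMUSG00000032081.3). Its peak, peak 5 at chr9:46043457-46044057, was the closest of all 15 to a start site, with a midpoint 38 bp upstream of the first Apoc3 start. It was the only one of the 15 with AAGGTCA at 2 places, and it held AGGTCA at 1 place more. One AAGGTCA lay 82 bp upstream of the start of the transcript Apoc3-001, near the left edge of the peak and 293 bp from its midpoint. The other lay 127 bp to the right of the midpoint, 165 bp upstream of the start of Apoc3-002. These 2 distances are counted from different starts. The first site, at chr9:46043461-46043467, also lies in intron 1 of Apoc3-002 and in noncoding exon 1 of Apoc3-004. The second, at chr9:46043881-46043887, lies outside annotated genes. Both read CAAAGGTCA, and neither was preceded by the TC that completes the extended half-site. The second stands in AGGACAAAGGTCA, which differs at 1 base from a direct repeat of AGGTCA spaced by 1 base, AGGTCANAGGTCA. Such repeats are the classical site of HNF4A, RXR heterodimers and related receptors, and the Apoc3 promoter is a textbook target of HNF4A. A match to the repeat with at most 1 mismatch was present in 1 of the 15 peaks, in 3.92% of the 1300 single-copy peaks elsewhere and in 1.41% of 2491 windows that flank single-copy peaks.

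Apoa4, which the intestine secretes on chylomicrons in response to fat, lies on the forward strand at chr9:46048779-46051542 (ENSMUSG00000032080.6). No peak lay within 1 kb of its start site. The nearest, peak 6 at chr9:46051106-46051706, lay 2627 bp downstream of the start, in the last exon and 136 bp before the end of the gene. Peak 6 was within 1 kb of a start site only through Gm10680, a processed transcript on the other strand, so it was not counted as a peak at a member's start site. Its AAGGTCA lay in coding exon 3 of Apoa4, 170 bp to the left of the midpoint. Peak 5, 5022 bp upstream, was the closest on the other side.

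Apoa5 encodes an activator of triglyceride hydrolysis that is known mainly from the liver. The gene, at chr9:46076716-46080002 (ENSMUSG00000032079.5), had a single peak within 30 kb, peak 6 in Apoa4, at 25310 bp upstream. It was the only member of the chromosome 9 group without a peak within 10 kb, and the next peak on its other side was 4335 kb away.

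**Figure D3:**
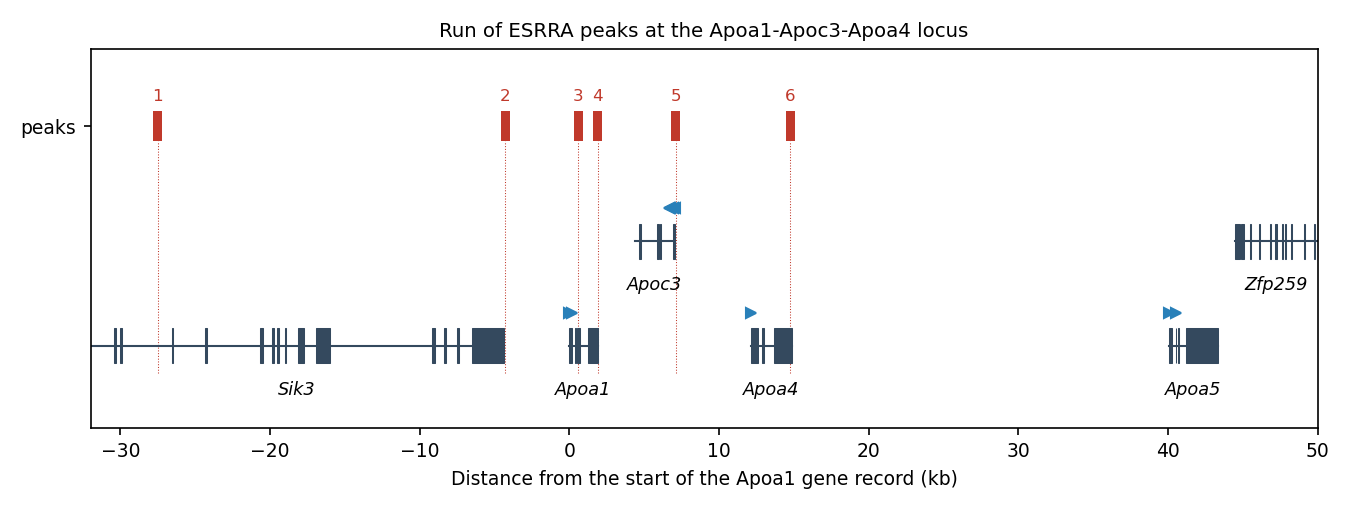
ESRRA peaks 1 to 6 (red, drawn to scale at 601 bp) and exons (dark boxes) against distance in kb from the start of the Apoa1 gene record; Apoc3 and Zfp259 are raised for clarity and blue triangles mark the start sites of the members, pointing along the gene. Peaks 3 and 4 sit on Apoa1, peak 5 at the start of Apoc3 and peak 6 at the 3′ end of Apoa4, and no peak sits on Apoa5.

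Apob encodes the structural protein of chylomicrons, of which the intestine makes a short form by editing of the messenger RNA. The gene spans 39188 bp on the forward strand at chr12:7984454-8023641 (ENSMUSG00000020609.8). Its run of 5 peaks spanned 40.0 kb, from near the start of the gene to past its 3′ end, with 4 of the 5 midpoints inside the gene. The gaps were 28696, 1172, 3432 and 6729 bp. One peak therefore stood at the 5′ end and 4 stood at the 3′ end, with none in the 28.7 kb between.

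Peak 1 of Apob, at chr12:7984824-7985424, lay in intron 2, 670 bp from the start of the gene record and 539 bp from the nearest transcript start. Peaks 2, 3 and 4, at chr12:8013520-8014120, chr12:8014692-8015292 and chr12:8018124-8018724, all lay in exon 26 of the transcript Apob-001, with all 601 bases of each in coding sequence. This exon is the longest of the gene at 7467 bp, and the midpoints stood 1278, 2450 and 5882 bp from its first base. Peak 5, at chr12:8024853-8025453, lay 1512 bp past the 3′ end of the gene, in sequence with no annotated gene. An annotated start of a short transcript, Apob-005, lies in the same exon at 8019165, and peak 4 was within 1 kb of a start site only through it, 741 bp upstream. Counted from the start of the gene record alone, Apob had 2 peaks within 30 kb in place of 5 and 1 within 1 kb in place of 2.

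Peaks that lie wholly in coding sequence were rare in the list. Of the 1639 peaks, 15 had all 601 bases in coding sequence, or 0.915%, and 3 of these 15 were Apob peaks 2 to 4. Of the 1315 single-copy peaks the share was 1.14%. Another gene with more than 1 was Plec, with 2. The remaining ones lay in 10 other places, among them the coding sequences of Jun, Maf and Ahnak. By midpoint, 5 of the 15 member peaks (33.3%) were in coding sequence, at Apoa1, at Apob and in Apoe. This compares with 119 of all 1639 peaks (7.26%) and 108 of the 1315 single-copy peaks (8.21%).

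Mttp encodes the transfer protein that lipidates APOB. The gene spans 53534 bp on the reverse strand at chr3:137752819-137806352 (ENSMUSG00000028158.8), and its 3 peaks spanned 18.3 kb, all inside the gene and all with midpoints in introns. Peak 1, at chr3:137793259-137793859, lay 782 bp downstream of the start of the shorter transcript Mttp-201 but 12793 bp from the start of the gene record, so no peak lay within 1 kb of the latter. Peak 2, at chr3:137781506-137782106, lay 12535 bp and peak 3, at chr3:137774935-137775535, 19106 bp downstream of the Mttp-201 start. Peak 2 held the only AAGGTCA of the gene's peaks, as TGAAGGTCA at 188 bp to the left of the midpoint on the forward strand, and TGACGTCA, the cyclic AMP response element, at 39.5 bp to the right. TGACGTCA was present in 17 of the 1300 single-copy peaks elsewhere (1.31%) and in 0.562% of flanking windows. Peak 3 held GATAAG, the core of GATA factor sites, and GTTAAT, a part of the HNF1 site. Upstream of the gene the next peak was 98.2 kb from the gene start.

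**Figure D4:**
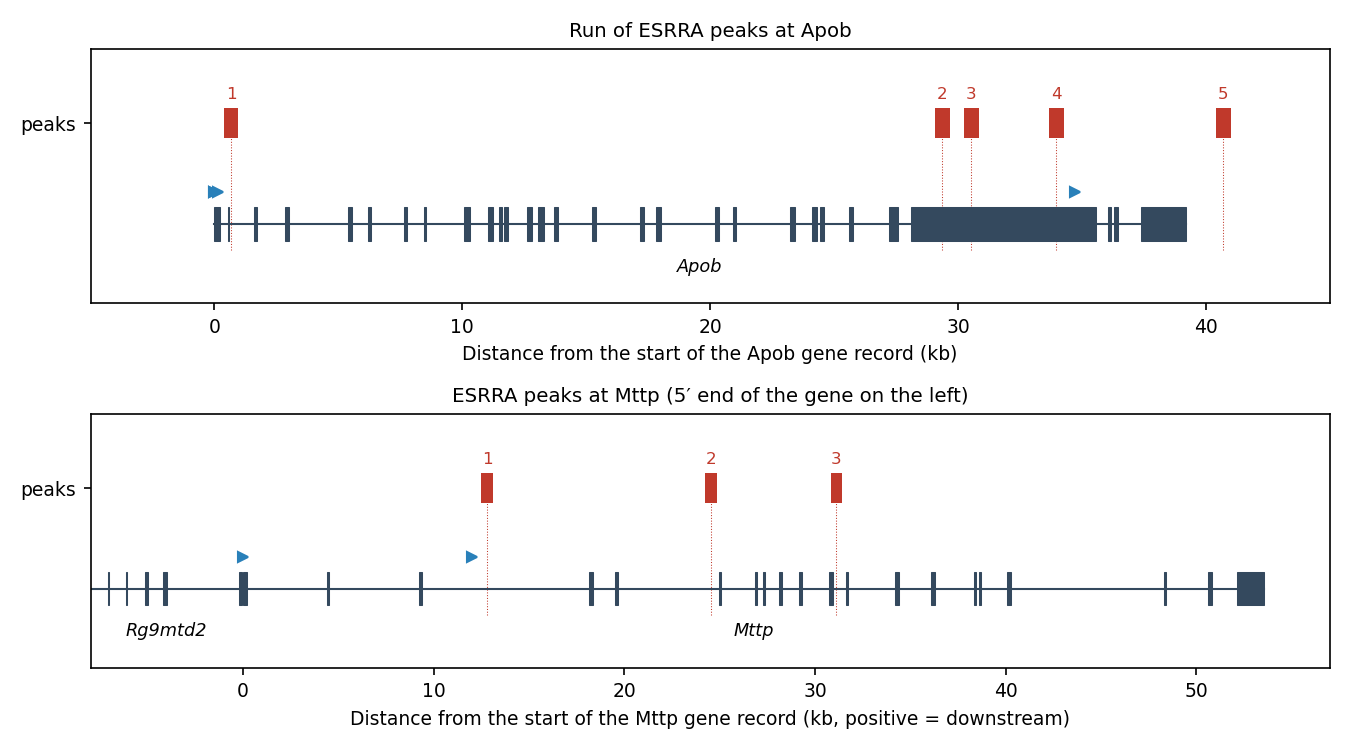
ESRRA peaks (red, to scale at 601 bp) and exons (dark boxes) at Apob and Mttp, against distance in kb from the start of each gene record, with start sites as blue triangles. Apob peaks 2 to 4 sit in the long exon 26 and peak 5 past the 3′ end. The 3 Mttp peaks have midpoints in introns downstream of the inner start site, and peak 3 overlaps an exon by 112 bases.

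Apoc2 and Sar1b, like Apoa5 above, had no peak of their own in this list. Apoc2 encodes the cofactor that activates lipoprotein lipase and lies at chr7:20256928-20266772 (ENSMUSG00000002992.10). Its only peak within 30 kb, at chr7:20281855-20282455, was 15383 bp upstream and belonged by position to Apoe, with 598 of its 601 bases in the coding part of the last exon of that gene, 697 bp before its 3′ end. This peak had the highest GC content of the 15, 65.2%, against a median of 47.4% for the 15 and 50.4% for single-copy peaks, and no AGGTCA.

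Sar1b, at chr11:51577189-51605427 (ENSMUSG00000020386.5), had no peak at any distance tested up to 100 kb. The nearest peaks to its gene start were 8.21 Mb away on one side and 1.67 Mb on the other. The stretch between them was 9.88 Mb. Of the 1618 gaps between neighbouring peaks, 30 (1.85%) were at least as long, and the median gap was 497.5 kb. A long gap holds more genes than a short one, so this share of gaps is not the share of genes in such gaps. The latter was not computed. The list gives only peaks past the authors' threshold, so it does not show whether weaker enrichment was present there.

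The sequence of the member peaks was set beside that of the other peaks as a description. AAGGTCA, which contains AGGTCA and is contained in TCAAGGTCA, was searched on both strands and was present in 4 of 15 member peaks, or 26.7% (95% Wilson interval 10.9 to 52.0%). Without the Apoa1 locus run the share was 11.1%, and without the Apob run 40.0%. It was present in 51.7% of the 1300 single-copy peaks elsewhere, in 25.7% of 144 when only single-copy members of the large runs were taken, those of at least 5 peaks, in which the 11 peaks at the Apoa1 locus and Apob are counted, and in 11.5% of flanking windows. The complete TCAAGGTCA was present in 0 of 15 member peaks (upper Wilson bound 20.4%), in 17.9% of single-copy peaks elsewhere and in 5.56% of those in large runs. It was present in 1.81% of flanking windows. In the 30 windows that flank the member peaks, AAGGTCA was present in 16.7% and TCAAGGTCA in 6.67%. AGGTCA was present in 6 of 15 (40.0%), against 70.2% of single-copy peaks elsewhere, 43.1% of those in large runs, 33.2% of flanking windows and 46.7% of the 30 windows that flank the member peaks. The same 7 letters written backwards, ACTGGAA, a control of equal composition, were also present in 4 of 15 member peaks (26.7%), against 9.85% of single-copy peaks elsewhere. The intervals cover counting error between peaks only, and with 15 peaks of 4 loci a count of 4 does not set the half-site apart from its control.

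The distances of the half-sites from the peak midpoint are a description only. The midpoint need not be the point of highest signal, and the same distances in the other peaks are not given here. Of the 5 AAGGTCA sites, 1 lay within 100 bp of the peak midpoint, that of Apoa1 locus peak 1 at 38 bp, and the others lay at 127, 170, 188 and 293 bp. Apoa1 locus peak 1 holds highly repeated words, and whether its site lies among them was not tested. By locus, AAGGTCA was found in 3 of 6 peaks at Apoa1, 0 of 5 at Apob, 1 of 3 at Mttp and not in the peak near Apoc2. The closest 9 bases to TCAAGGTCA differed at 1 base in 2 peaks, GCAAGGTCA in Apoa1 locus peak 1 and TGAAGGTCA in Mttp peak 2, and at 2 bases in the other 13. One mismatch or none was found in 2 of 15 member peaks (13.3%), 55.5% of single-copy peaks elsewhere, 28.5% of those in large runs, 22.2% of flanking windows and 26.7% of the windows that flank the member peaks, while up to 2 mismatches occurred in 87.2% of flanking windows and so separate nothing. The closest matches in the Apob run are shown because that run is the only one of 3 or more peaks here without the half-site.
Apob peak 1: TCAGGGTGA
Apob peak 2: ACCAGGTCA
Apob peak 3: TTAAGATCA
Apob peak 4: TAAAGGGCA
Apob peak 5: TCAAGACCA

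**Figure D5:**
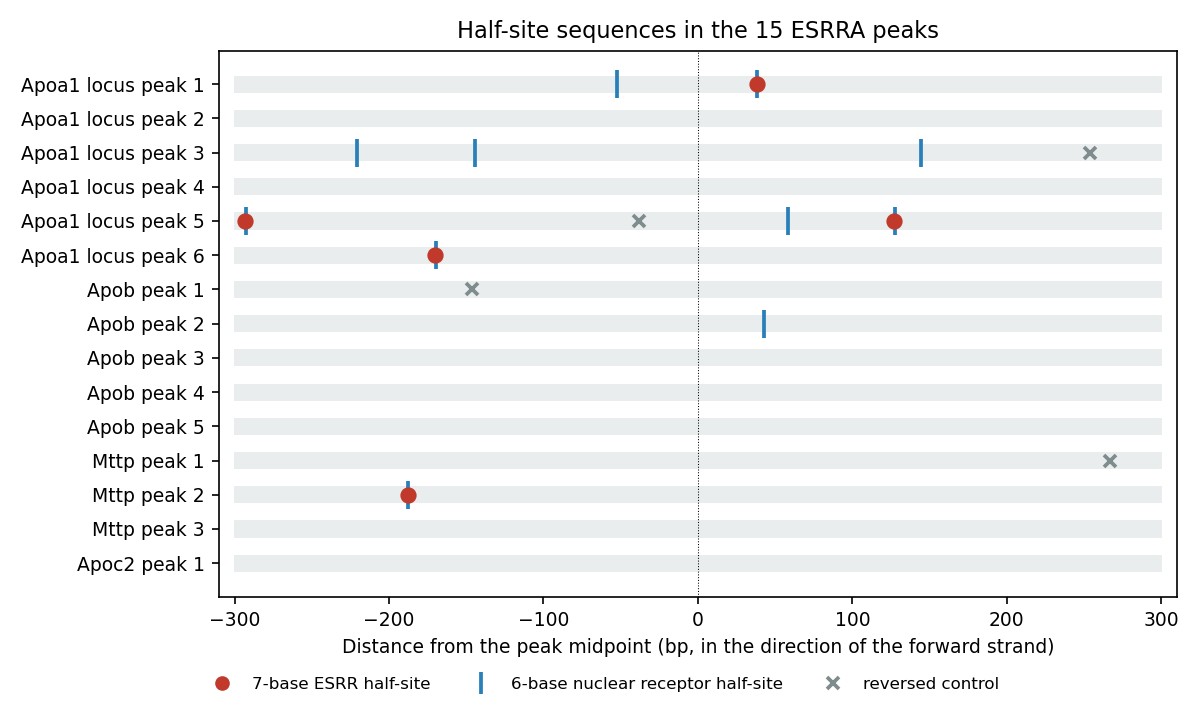
Position of AAGGTCA (red points), AGGTCA (blue ticks) and the reversed control (grey crosses) in each of the 15 peaks, in bp from the peak midpoint along the forward strand. The Apoa1 locus holds most of the sites, with 4 of the 5 red points, and 3 of the 5 Apob peaks hold none of the sequences.

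The 7 bases also occurred around the genes outside the peaks. Within 30 kb of the start sites at the Apoa1 locus, 100.5 kb in all, AAGGTCA occurred at 29 places, 4 of them in a peak. At Apob it occurred at 12 places and at Apoc2 at 10, none in a peak, and at Mttp at 17 places, 1 of them in a peak. Sar1b, with no peak, had 13 places in 60.0 kb. The complete TCAAGGTCA occurred at 3 places around the Apoa1 locus, 1 at Apoc2, 1 at Mttp and none at Apob or Sar1b, and none of these 5 was in a peak. The nearest to a peak lay 3134 bp downstream of the Apoa4 start, at chr9:46051909-46051917, 507 bp from the midpoint of peak 6 and outside its edge.

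The few other factors' sequences that were searched were sparse. CAAAGTCCA and CAAAGTTCA, forms of the HNF4 site, TTTATGG, a form of the CDX2 site, and CCGGAAG, the ETS core, were in none of the 15 peaks. These were in 3.00%, 2.23%, 7.92% and 9.69% of single-copy peaks elsewhere, so absence from 15 peaks shows little. GATAAG was in 2 of 15 (13.3%), against 21.5%, and GTTAAT in 2 of 15, against 16.6%.

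Several member peaks lay at the 3′ end of a gene. The midpoint was within 1 kb of the end of a protein-coding gene in 4 of 15, or 26.7% (Wilson interval 10.9 to 52.0%), at Sik3, Apoa1, Apoa4 and Apoe. This compares with 121 of 1300 single-copy peaks elsewhere (9.31%). By class, 6 of the 15 (40.0%) had a midpoint within 1 kb of any annotated start site, against 35.7% of single-copy peaks and 29.8% of all peaks, and 5 of these 6 were at a member's start.

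Among runs, that of Apoa1 was one of the 11 with at least 6 single-copy peaks, of 1242 runs in all, and that of Apob one of 18 with at least 5. Of those 11, 10 are named here, and another with 6 is tied with the last of them: they were the runs at St3gal4 (16), Slc5a1 (14), Frmd8 (12), Rbp2, Atp1b1, Plac8 and Mgam (8 each), and Muc13, Sis and Apoa1 (6 each), named by a neighbouring protein-coding gene. AAGGTCA was in 3 of the 6 Apoa1 peaks, in 5 of 8 at Atp1b1, in 3 of 8 at Rbp2 and at Mgam, in 2 of 8 at Plac8, in 3 of 12 at Frmd8, in 1 of 6 at Sis, in 2 of 17 at St3gal4 (1 of these peaks was multi-copy), in 1 of 14 at Slc5a1 and in 0 of 6 at Muc13. Counting peaks inside the gene, Apob with 4 was among 14 protein-coding genes and Mttp with 3 among 29 that had at least as many. Among those 14, ranked by number and then by peaks per kb, the first 10 were St3gal4 (13), Slc5a1 (12), Mgam (9), Sis (8), Atp1b1 and Gm20388 (6 each), Rbp2 and Abcc2 (5 each), and Lgals4 and Krt20 (4 each, tied with Apob). The record of Gm20388 is 4434.88 kb long, with 0.00135 peaks per kb against 0.285 for Atp1b1. Several of the 10 genes are characteristic of villus enterocytes. Among them are the sodium-glucose transporter gene Slc5a1, the disaccharidase genes Sis and Mgam and the retinol-binding protein gene Rbp2.

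The other genes of the pathway were counted by the same distance. Of 32 further genes of chylomicron formation with a gene record, 10 (31.3%) had a peak within 30 kb and 4 within 1 kb. Those within 1 kb were Sec23a, a COPII coat subunit (636 bp), Tm6sf2, a factor in lipoprotein lipidation (449 bp), Creb3l3, a transcription factor for apolipoprotein genes (769 bp), and Fabp1, the liver-type fatty acid binding protein (430 bp). The others were Sec31a, also of the COPII coat (1435 bp), Vmp1 (4620 bp), Lpcat3, which makes the phospholipids of nascent particles (10797 bp), Preb, the exchange factor that activates SAR1 (11667 bp), Pdia3 (25961 bp) and Stx5a (27972 bp). Fabp1 with 4 peaks and Lpcat3 with 3 had the most, and 1 of the 2 peaks of Sec23a was multi-copy. The remaining COPII genes, such as Sar1a, Sec13, Sec23b and Sec24a to Sec24d, had none within 30 kb. P4hb, whose product is the other subunit of the microsomal transfer protein, had its nearest peak at 35612 bp, just outside the limit.

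The 25 other apolipoproteins and lipoprotein receptors had 2 peaks between them. One was the peak in Apoe, which lay within 30 kb of Apoe, Apoc1 and Apoc4 as well as Apoc2, and the other lay 23960 bp from Scarb1, the high-density lipoprotein receptor gene. By gene this is 4 of 25 (16.0%) within 30 kb and 0 within 1 kb, and neither peak held AAGGTCA. Apoa2, with its nearest peak over 1 Mb away, was among the 21 without.

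The 28 genes of fatty acid uptake and triglyceride synthesis, the steps before assembly, had a peak within 30 kb in 10 cases (35.7%) and within 1 kb in 3, which were Fabp1, Dgat1 (630 bp) and Lpin3 (254 bp). Dgat1, an enzyme of the last step of triglyceride synthesis, had 4 peaks, and Dgat2, which catalyses the same step, had 1 at 21127 bp. Mogat2, the main route of resynthesis from monoacylglycerol in the gut, had 2, the nearer at 8579 bp. Fabp2, the intestinal fatty acid binding protein gene (3569 bp), Acsl5, which activates fatty acids (4416 bp), Agpat2 (2797 bp) and the lipid droplet gene Plin3 (14267 bp) had 2 each, and the desaturase gene Scd1 had 1 (11505 bp). Cd36, Slc27a4 and Acsl1, genes of fatty acid uptake and activation, had none within 30 kb. Of the 21 peaks at these genes 10 held AAGGTCA, against 6 of the 17 at the chylomicron formation genes and 4 of the 15 at the members, and Fabp1 is counted in both lists.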

How the data were processed

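ESRRA ChIP-seq of mouse duodenal villus cells was analysed as 1 deposited peak list. According to the study's methods and the submitters' processing notes, the authors aligned paired-end reads to mm9 with Bowtie2 2.2.6, merged the 2 ChIP libraries with SAMtools 0.1.19 and called peaks with MACS2 at p 1e-05. The deposited values are start and end positions in bp, with no signal. How all widths became 601 bp is not given in the sources used here. The list does not show the depth of each sample, and no columns of other samples were left out.

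Deposited starts count from 0 and are given here from 1. Peaks were compared with GENCODE M1 on NCBI build 37 (mm9). Start sites were those of all transcripts. Motifs were matched exactly on both strands, also in flanking windows of equal width 2 kb away that touched no peak. A peak was multi-copy when its median 24-base word had over 10 copies. Intervals are 95% Wilson intervals. The functions were tested on simulated data. Analyses used Python 3.11.15, numpy 2.4.6, pandas 2.3.3 and numba 0.67.0.

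The members and lists were chosen with earlier results of these data known. Named were the 8 genes, list genes with a peak within 30 kb, the 10 genes with the most peaks inside and the 10 largest runs. List genes named without a peak (Sar1a, Sec13, Sec23b, the Sec24 genes, P4hb, Apoa2, Cd36, Slc27a4, Acsl1) and the genes named for wholly coding peaks were chosen after their values were seen. In the chylomicron list, Mia3 and Vamp7 had no gene record.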

Additional observations from a re-analysis of the deposited data

How the results depend on the processing

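Of the other settings tried, 38 kept counts within 1.5 times, or the half-site share within its counting interval, and 10 moved the value further. Of those chosen after seeing the data, 2 left it and 1 moved it. With a distance of 10 kb, chylomicron formation genes with a peak fell from 10 to 6 and other apolipoproteins from 4 to 2, and with 100 kb the latter rose to 9. Members with a peak went from 7 to 5 at 10 kb. Member peaks within a start site distance of 500 bp were 2 and within 5 kb were 9, against 5. Because of its gap of 28696 bp, the run that holds the first Apob peak fell to 1 peak with gaps of up to 10 kb or 5 kb, and of up to 20 kb (chosen after seeing the data); the other 4 peaks stayed 1 run at 10 and 20 kb. At 5 kb the Apoc3 peak stood alone as 1, and the largest run at that locus had 3 peaks. The share of member peaks with the half-site, 26.7%, was 0% for TCAAGGTCA, 11.1% without the run at Apoa1, 40.0% without the run at Apob and 6.67% when only the central part of each peak was searched. Counting from gene record starts gave 11 peaks in place of 15.

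Leaving out each replicate and a stricter peak threshold were not run, since they need peaks per library and scores, which were not analysed here. No paired analysis was possible because peaks were called on merged libraries. Every peak counts alike whatever its strength, genes with long records or many start sites have more chances of a peak, and the input level at these loci was not tested.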
